A study of Caenorhabditis elegans with 4 samples.

Results

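LSY-2 occupancy of chromosome V was examined in the nematode Caenorhabditis elegans. The members are all regions of the authors' combined list of called regions that lie on chromosome V, chosen by chromosome alone. They number 260 of 1702, or 15.3% of the list. On the same chromosome the list of ChIP replicate 1 holds 169 of 1099 regions and that of ChIP replicate 2 holds 109 of 746.

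The worms were L2 hermaphrodites of strain OP240. In an unc119(ed3) background they carried the transgene wgIs240, in which lsy-2 is fused to TY1, EGFP and FLAG tags beside an unc119 rescue gene. They were raised at 20 degrees C and fixed with 2% formaldehyde. The GFP tag was precipitated with a goat antibody in 2 ChIP samples, and 2 input samples came from the same strain, so all 4 carry the transgene, which was introduced by bombardment. The fusion is reported in the labels to follow the expression pattern of lsy-2, and whole animals were used, so a region can stem from any tissue that makes the protein. Each list gives a position and a q-value per region, assigned by the peak caller PeakSeq, and all positions are in build WormBase WS180.

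LSY-2 is a C2H2 zinc finger transcription factor, known from the left-right asymmetry of the ASE pair of taste neurons. It is known to be needed for expression of the microRNA lsy-6 in the left cell, and lsy-6 is encoded on chromosome V, as the RefSeq gene table of assembly WBcel235 also lists. Chromosome V is the largest chromosome of the worm and is known for its large families of chemoreceptor genes. The worm's autosomes are known to have gene-rich centres of low recombination and repeat-rich arms of higher recombination. Gene positions of build WS180 were not used here, so whether any region lies at lsy-6 or at another gene was not determined, and regions are given by position.

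LSY-2 regions on V were mostly short and of low −log10 q, with a single region far above the rest. Their widths had a median of 436 bp and a middle range from 367 to 608 bp, and together they covered 143 kb, or 0.688% of the span of the chromosome. The span here, 20.8 Mb, reaches from the leftmost to the rightmost called base. The −log10 q, which is larger for a smaller q-value, had a median of 7.50 and ranged from 3.66 to 282. Of the 260 regions, 36 had a −log10 q above 20 and 69 had one below 5. The lists hold no read counts, so the depth is unknown and a single region's q-value carries no error. Depth and enrichment both move a q-value, so it is used to describe and rank regions within a list. Where values of several lists stand side by side, each is the caller's value in its own list, and their sizes are not compared.

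The strongest region lay near the middle of V at 11763181 to 11765562. Its −log10 q was 282 in the combined list, 244 in that of replicate 1 and 204 in that of replicate 2. The next strongest V region had only 92.4, so the first exceeded it 3.06 times on the −log10 q scale. In the combined list as a whole it was the first of 1702, while the second V region ranked 55th. V held 6 of the 100 strongest combined regions, against its 15.3% share of the list.

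The next 4 regions of V had combined values from 78.8 to 92.4 and lay far apart. For the region at 2694234 to 2695058 the −log10 q was 92.4 in the combined list, 51.3 for replicate 1 and 46.4 for replicate 2. At 15511512 to 15513869 the values were 82.7, 58.4 and 41.9 in the same order. The broad region at 6222834 to 6230075 had 81.0, 41.6 and 19.8. The region at 17981418 to 17982302 had 78.8, 48.6 and 41.9. No neighbour followed the region at 2694234 for 696 kb.

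The sixth to the twelfth region had combined −log10 q values from 62.2 down to 51.0. The sixth, at 14685323 to 14687926, had 50.8 in replicate 1 and 33.0 in replicate 2. The seventh, at 12318028 to 12318729, had 33.5 and 27.0, and the eighth, at 9730685 to 9732666, had 31.2 and 23.4. These were followed by 4 regions with combined values between 51.0 and 51.1, which began at 16537816, 10897093, 9546386 and 9342990. In replicate 1 they reached 29.6, 35.7, 36.7 and 28.6, and in replicate 2 they reached 19.99, 21.4, 19.4 and 20.4. Spanning 10897093 to 10897564, the second of these was the narrowest of the first 12 at 472 bp, and the one at 9342990 to 9344701 measured 1712 bp at the same combined strength.

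The other 13 of the 25 strongest V regions had combined −log10 q values from 29.5 to 48.6. On the left they began at 7947, 1151192, 5049249 and 5584290, with 30.95, 43.0, 43.3 and 29.5. Towards the middle they began at 10042253, 11979820 and 12343530, with 30.02, 32.8 and 41.5. On the right they began at 14055009, 14612152, 15766161, 18967570, 19643806 and 20840749, with 34.6, 47.4, 36.0, 48.6, 45.2 and 39.95. The first and the last region of the span, at 7947 to 9214 and 20840749 to 20841331, were thus among them. At the left end the value was 18.9 in replicate 1 and 17.0 in replicate 2, and at the right end 24.4 and 21.0.

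All 25 of these regions were called in both replicates. The background for this call is 40.7% of all combined regions, but the strongest regions of any list are the most likely to be called again, so nothing is read from the count. Their values ran from 15.9 to 244 in replicate 1, with a median of 29.6, and from 11.9 to 204 in replicate 2, with a median of 20.4. By position, 6 of the 25 lay in the left part of the span, 9 in its centre and 10 in the right part, each part being 33.3% of the span.

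**Figure D1:**
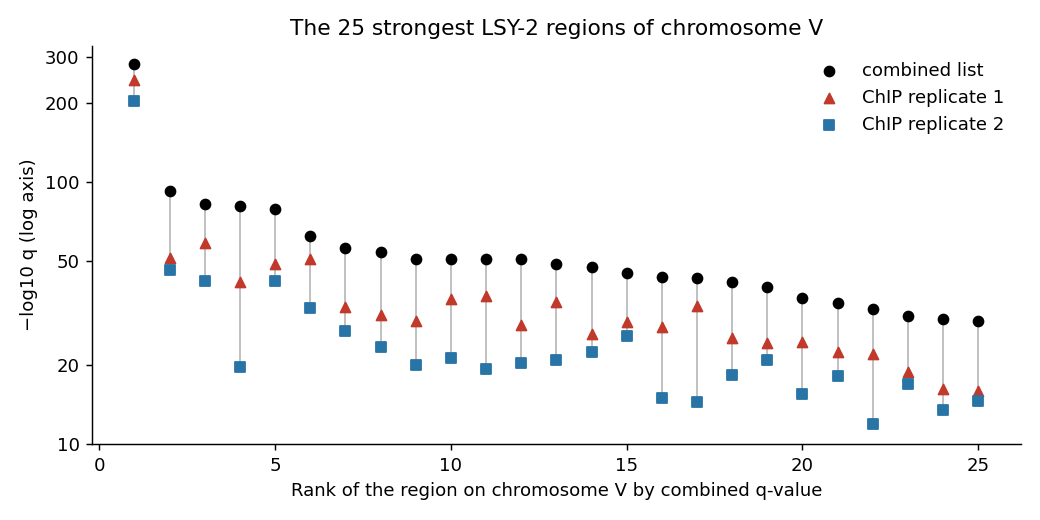
The 25 strongest LSY-2 regions of chromosome V, ordered by combined q-value (x axis), with their −log10 q on a log axis in the combined list (circles), ChIP replicate 1 (triangles) and ChIP replicate 2 (squares). Grey lines join the values of a region. The first region, at 282, stands apart from the second, at 92.4, in the combined list.

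Most V regions of the combined list had support from at least 1 replicate. Of the 260, 102 overlapped a region of both replicates (39.2%, 95% exact interval 33.3 to 45.5%, against 40.7% of all combined regions). A further 63 were called in replicate 1 only (24.2%, against 22.0% of all), 5 in replicate 2 only (1.92%, against 2.35%) and 90 in neither (34.6%, 28.9 to 40.7%, against 34.9%). On the other 5 chromosomes 41.0% were called in both and 35.0% in neither. Chromosome I raised the second share, with 47.3% in neither (95% exact interval 41.4 to 53.4%), and without it the others had 31.96%. The difference between V and the others was -1.75 percentage points for both (95% interval -8.04 to 4.80, Fisher's exact test, adjusted p = 0.812) and -0.34 points for neither (-6.40 to 6.10, Fisher's exact test, adjusted p = 0.944). Adjustment is over the 9 share comparisons made here, none of which passed, and 0 of the 9 had an unadjusted p under 0.05. Among 49 alternative values of these comparisons, 10 had an unadjusted p under 0.05 by Fisher's exact test, and 1 passed after adjustment. The tests treat regions as independent, although neighbours can share a site, and they describe these lists.

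Within V, regions called in both replicates had a higher median −log10 q than the rest. Strong regions are the most likely to be called again, so nothing is read from this order. On the other chromosomes the medians were 20.7 for both, 7.4 for replicate 1 only and 4.71 for neither. The 102 regions of both replicates had combined −log10 q values with a median of 15.7 and ranged from 5.31 to 282. The 63 of replicate 1 only had a median of 7.25 and reached 13.7, and the 5 of replicate 2 only lay between 4.34 and 6.96. The 90 of neither had a median of 4.55 and reached 9.80. The weakest regions of both replicates lay at 13715246 to 13715626, with 5.31, and at 11239258 to 11239479, with 5.44, so regions of both and of neither overlap between 5.31 and 9.80.

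Among V regions of replicate 1 only, the strongest lay at 8348836 to 8349465, with a combined −log10 q of 13.7 and a replicate 1 value of 9.35. It was followed by regions that began at 15187390, 9340270, 5790463 and 10807913, with combined values of 11.98, 11.4, 11.4 and 11.1. The region at 5790463 to 5791332 had 11.3 in replicate 1. It corresponds to the strongest V region of replicate 1 without a partner in replicate 2.

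The 5 regions of replicate 2 only began at 12465033, 13090486, 1158352, 20744522 and 11532044. Their replicate 2 values were 4.53, 4.87, 5.55, 3.82 and 4.27, and their combined values were 6.96, 6.25, 6.07, 5.04 and 4.34. The strongest V regions called in neither replicate began at 10031342, 11630621, 17870585, 10039834 and 15082049, with combined values of 9.80, 9.42, 9.20, 8.19 and 7.97.

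Between the replicate lists, 104 of 169 V regions of replicate 1 had a replicate 2 partner (61.5%, 95% exact interval 53.8 to 68.9%). Over all chromosomes this share was 64.0%, and on the others 64.4%. The difference was -2.87 points (-10.97 to 4.80, Fisher's exact test, adjusted p = 0.730). In the other direction, 104 of 109 V regions of replicate 2 had a replicate 1 partner (95.4%, 89.6 to 98.5%), against 94.2% over all chromosomes and 94.0% on the others. That difference was 1.38 points (-4.54 to 4.74, Fisher's exact test, adjusted p = 0.926).

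In replicate 1 the share of V regions with a replicate 2 partner was lower among weaker regions. Of the strongest 43, with a −log10 q of 10.6 or more, 42 had one (97.7%, 95% exact interval 87.7 to 99.9%). The exception was the region at 5790539 to 5791265. In the following groups of 42, ordered by strength, 31 of 42, 25 of 42 and 6 of 42 had a partner, and the last share was 14.3% (5.43 to 28.5%). The other chromosomes had the same order, with 100% of their strongest 233, then 86.7%, 49.1% and 21.6%, although their groups were cut at other values, the first at a −log10 q of 16.2. Nothing is read from the shares of V alone. Among replicate 2 regions of V, the strongest 55 all had a replicate 1 partner, in 28 of 28 and 27 of 27, and 24 of the weakest 27 had one (88.9%, 70.8 to 97.7%). Elsewhere the strongest 160 all had one, and 80.5% of the weakest 159 did.

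**Figure D2:**
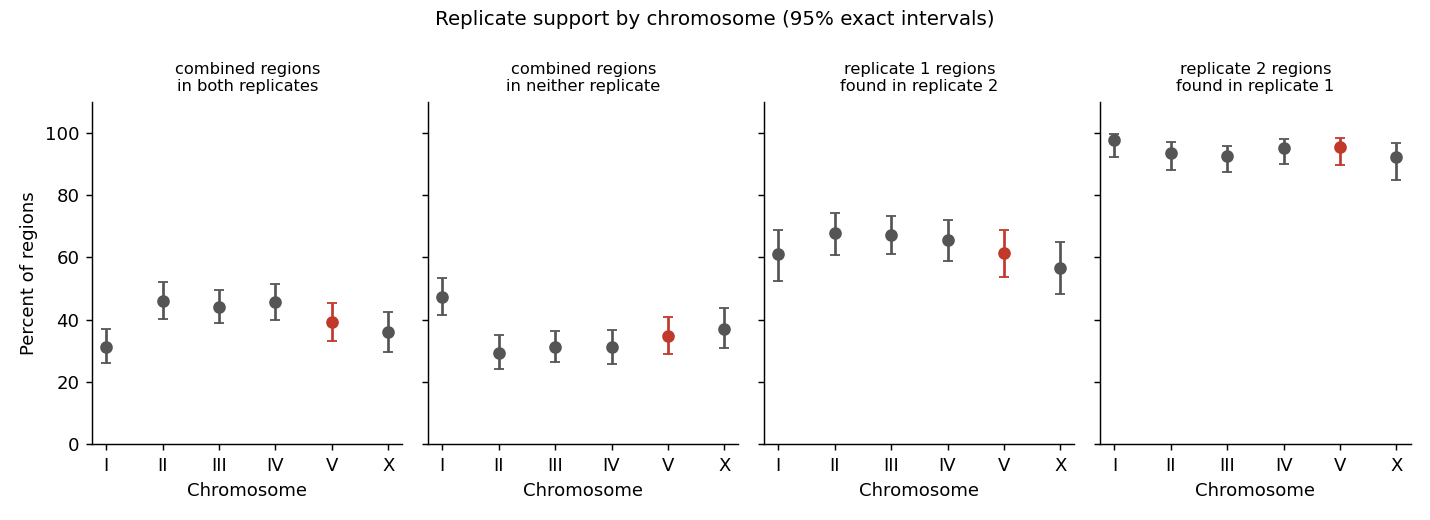
Percent of regions (y axis) called in both replicates or in neither, and of replicate regions found in the other replicate, for each chromosome (x axis), with 95% exact intervals and V in red. V had 39.2% in both and 34.6% in neither, and its intervals overlap those of II, III, IV and X in each of the 4 panels. Chromosome I stands higher in neither, at 47.3%, and that interval does not overlap the one of V.

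Pairs of replicate regions were defined by an overlap of at least 1 bp, which limits their distances in advance, so nothing is read from their closeness. On V there were 106 such pairs. Their starts differed by a median of 35.5 bp, their ends by 38.5 bp and their midpoints by 27.5 bp, and 79 of 106 pairs had midpoints at most 50 bp apart (74.5%). In 57 pairs the narrower region lay wholly inside the wider one, and in 80 the replicate 1 region was the wider. On the other chromosomes the median midpoint distance was 28.0 bp over 603 pairs, and 70.2% were at most 50 bp apart. Across the 106 V pairs, Spearman's rho between the −log10 q values of the replicates was 0.82 and Pearson's r was 0.96. On the other chromosomes they were 0.88 and 0.92. Regions without a partner do not enter, and 2 regions of each replicate on V enter 2 pairs, here and in the ranks below. Leaving out the 2 pairs farthest from the median replicate 1 value gave an r of 0.82, against 0.95 on the other chromosomes. On V the second of these was tied, since the replicate 1 region at 15511539, with 58.4, enters 2 pairs. Their replicate 2 values were 41.9 and 4.65, so this r depends on which was left out, and nothing is read from it. The points share the strain, the antibody and the caller, and the correlation is across regions and describes these 2 libraries.

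Ranked by −log10 q within each replicate, 22 of the 25 strongest V pairs of replicate 1 were among the 25 strongest of replicate 2, and the 106 pairs moved by a median of 9 ranks. Some pairs took quite different places. The pair at 12303343 to 12303838, whose replicate values were 12.5 and 4.18, ranked 37th in the first and 94th in the second. At 5917684 to 5918051 the values were 8.17 and 3.89 and the ranks 62nd and 101st. In the other direction, the pair at 17951133 to 17951663, with 6.06 and 7.25, ranked 81st in replicate 1 and 45th in replicate 2.

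**Figure D3:**
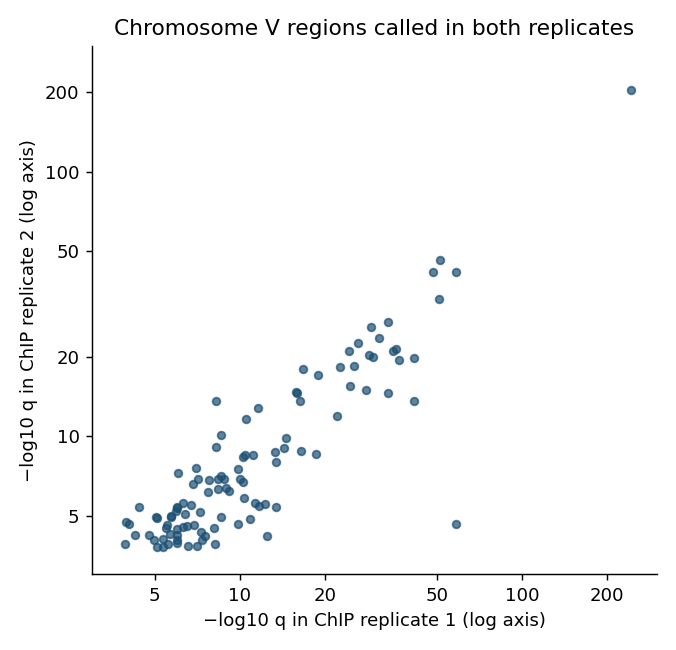
−log10 q in ChIP replicate 1 (x axis) and ChIP replicate 2 (y axis), both on log axes, for the 106 overlapping pairs of regions on chromosome V. The point at 244 and 204 is the strongest region of V, and the one at 58.4 and 4.65 is a pair that overlaps by 91 bp.

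Both sites where a combined V region held several replicate regions were broad and strong. The region at 6222834 to 6230075, 7242 bp wide, was the widest of all 1702. Replicate 1 divided it into 6223568 to 6228194, with a −log10 q of 41.6, and 6228621 to 6230119, with 8.21. Replicate 2 divided it at another place, into 6223967 to 6225699, with 19.8, and 6227059 to 6229915, with 13.6. The left part was thus the stronger in both lists. The pair of right-hand regions ranked 61st of 106 in replicate 1 and 26th in replicate 2. These ranks do not compare the same bases, since the right-hand region of replicate 2 also overlaps the left one of replicate 1 by 1136 bp.

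The region at 15511512 to 15513869 also held 2 regions of each replicate. Its main replicate 1 region, at 15511539 to 15512613 with a −log10 q of 58.4, overlapped a replicate 2 region at 15511512 to 15512290, with 41.9. It also touched a weak replicate 2 region at 15512523 to 15513093, with 4.65, over 91 bp, which gave the pair of V with the largest difference in rank, the second in replicate 1 and the 78th in replicate 2. At all other V regions of both replicates, each list held a single region.

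Widths of V regions ranged from 6 to 7242 bp, and 12 of the 260 exceeded 1000 bp (4.62%, against 9.50% elsewhere). That difference was not tested, and elsewhere includes X, whose median width was 531 bp against 456.5 bp on I to IV. Of the 12 on V, 10 were called in both replicates (83.3%, 95% exact interval 51.6 to 97.9%), and of the 137 as wide elsewhere 73.0% were (64.8 to 80.2%). The 5 widest began at 6222834, 14685323, 11763181, 15511512 and 9730685, with widths of 7242, 2604, 2382, 2358 and 1982 bp. All 5 were also among the 8 strongest of V. The 5 narrowest measured 6, 67, 105, 167 and 192 bp, and none of these was called in a replicate, nor were 12 of the 13 regions under 200 bp elsewhere. The region of 6 bp, at 17363645 to 17363650 with a −log10 q of 3.70, was the narrowest of all 1702, and it adjoins the second longest gap of V.

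V regions were not shown to be narrower or weaker than regions elsewhere in the combined list. Of the V regions, 45.0% reached the median width of the whole list, 459 bp, against 51.0% on the other chromosomes, a difference of -6.04 points (-12.5 to 0.56, Fisher's exact test, adjusted p = 0.453). With the replicate 2 list alone, 35.8% of V regions and 52.6% of the others were in its wider 50%, and that difference of -16.8 points passed (Fisher's exact test, adjusted p = 0.0115, and between that and 0.493 across alternatives). With the replicate 1 list alone the shares were 41.4% and 51.8% (Fisher's exact test, adjusted p = 0.136). Median widths on V were 436 bp in the combined list, 398 bp in replicate 1 and 373 bp in replicate 2, against 462, 441 and 417 bp elsewhere. The reference includes X, whose regions were wider, with medians of 531, 501.5 and 518 bp. On I to IV the medians were 456.5, 431 and 408 bp. Against I to IV alone the combined difference was -3.84 points (Fisher's exact test, adjusted p = 0.493), and for the replicate lists it was not computed.

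For strength, 46.5% of V regions lay in the stronger 50% of the combined list against 50.6% elsewhere, a difference of -4.09 points (-10.6 to 2.51, Fisher's exact test, adjusted p = 0.454). The upper end differed more in size. V had 18.8% of its regions in the strongest 25% of the list, against 26.1% elsewhere, and that difference of -7.30 points did not pass either (Fisher's exact test, adjusted p = 0.114). A −log10 q above 20 was found in 13.8% of V regions and in 20.9% of the others, and one below 5 in 26.5% and 25.2%. In replicate 1 the strongest 25% of V regions began at a −log10 q of 10.6, and that of the others at 16.2. The others include X, which was close to V here. Its strongest 25% began at 10.6 in replicate 1, against 16.55 on I to IV. In the combined list the strongest 25% began at 13.0 on V, 12.9 on X and 17.1 on I to IV.

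Combined regions of V were wider than both replicate regions in 84 of the 102 called in both, and in 478 of 591 elsewhere.

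Regions of V were most numerous in the middle of the chromosome. Of the 260, 66 lay in the left part of the span, 116 in the central 33.3% (95% exact interval of the share of 44.6%, 38.5 to 50.9%) and 78 in the right part. In replicate 1 the numbers were 45, 78 and 46, and in replicate 2 they were 24, 54 and 31. On chromosomes I to IV, 40.0% of regions were central, and V did not differ from them by the test made (4.63 points, -1.91 to 11.3, Fisher's exact test, adjusted p = 0.453).

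The profile along V was not smooth. In 10 bins of equal length from left to right, each of 2.08 Mb, the combined list held 19, 11, 29, 19, 36, 48, 32, 23, 13 and 30 regions. The sixth bin, between 10466511 and 12498093, held the most, 23.0 per Mb, of which 23 were called in both replicates (47.9%, against 40.7% of all combined regions), and it includes the strongest region. The second bin held the fewest, 5.28 per Mb, although the second strongest region of V lies there. The last bin had 30 regions, of which 16 were called in neither replicate (53.3%, against 34.9% of all), the highest count of that kind in any bin, and the lowest median −log10 q, 5.81. The replicate 1 list held 13 regions in the last bin and the replicate 2 list 11. Bins were singled out after their counts were seen, so nothing is read from their shares of calls. The eighth bin had the highest median, 9.89, and held 5 of the 25 strongest, as did the sixth.

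**Figure D4:**
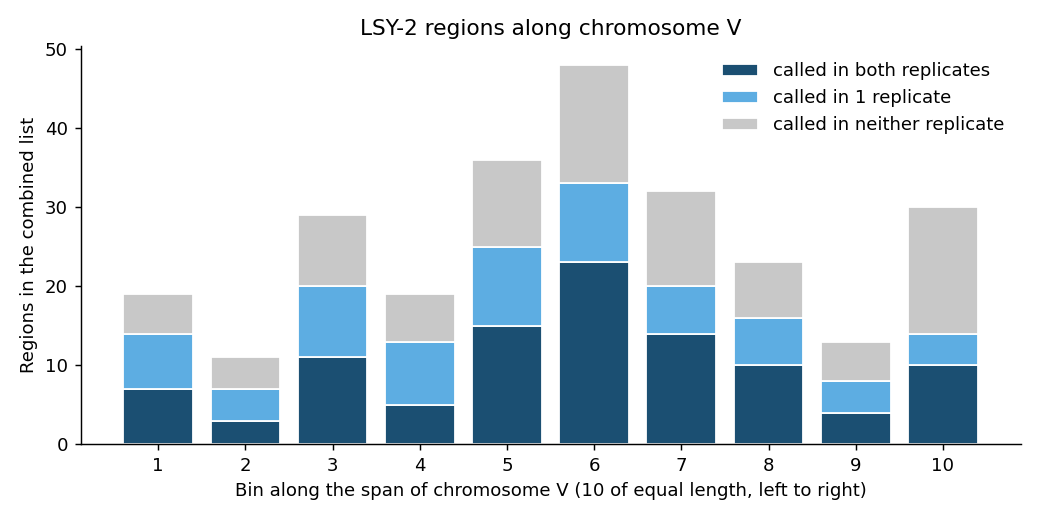
Regions of the combined list (y axis) in each of 10 bins of equal length along the span of chromosome V (x axis), divided into regions called in both replicates, in 1 replicate and in neither. The sixth bin has 48 regions and the second 11, and 16 of the 30 in the last bin were called in neither replicate.

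Per Mb of span, V had fewer regions than the other autosomes in its centre and in its outer parts. The central 33.3% of V held 16.7 regions per Mb and the same part of I to IV held 23.8, a ratio of 0.70 (95% exact interval 0.57 to 0.86, exact binomial test, adjusted p = 5.08e-04 over 2 comparisons). In the outer parts V held 10.4 per Mb and the others 17.8, a ratio of 0.58 (0.48 to 0.70, exact binomial test, adjusted p = 7.85e-10). In replicate 1 the outer ratio was 0.54 (0.42 to 0.67) and in replicate 2 it was 0.47 (0.34 to 0.62), both past the threshold (exact binomial tests, adjusted p = 1.27e-08 and 2.20e-08). The central ratio did not pass in the replicate lists. It was 0.80 for replicate 1 (0.62 to 1.03, exact binomial test, adjusted p = 0.0914) and 0.79 for replicate 2 (0.57 to 1.07, exact binomial test, adjusted p = 0.131). That the central and the outer ratio differ was not shown, since the share of central regions on V and on I to IV did not differ by the test above. The binomial tests also treat regions as independent, although neighbours can share a site. They do not cover the spread between single autosomes, so their p-values describe these lists and not a difference between chromosomes in general.

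Single autosomes varied in the same measure. Their centres held 26.1 regions per Mb on I, 19.3 on II, 33.6 on III, 17.8 on IV and 16.7 on V, and their outer parts 14.9, 17.95, 22.0, 17.0 and 10.4. V had the lowest density of the autosomes in both, next to IV in the centre and to I in the outer parts. On X the centre held 10.8 per Mb, below V, and the outer parts 14.98, above V, and over the whole span X had 13.6 per Mb and V 12.5. Without chromosome III, which had the highest, the ratio for V was 0.80 in the centre (exact binomial test, adjusted p = 0.0353) and 0.62 in the outer parts (adjusted p = 3.62e-07).

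**Figure D5:**
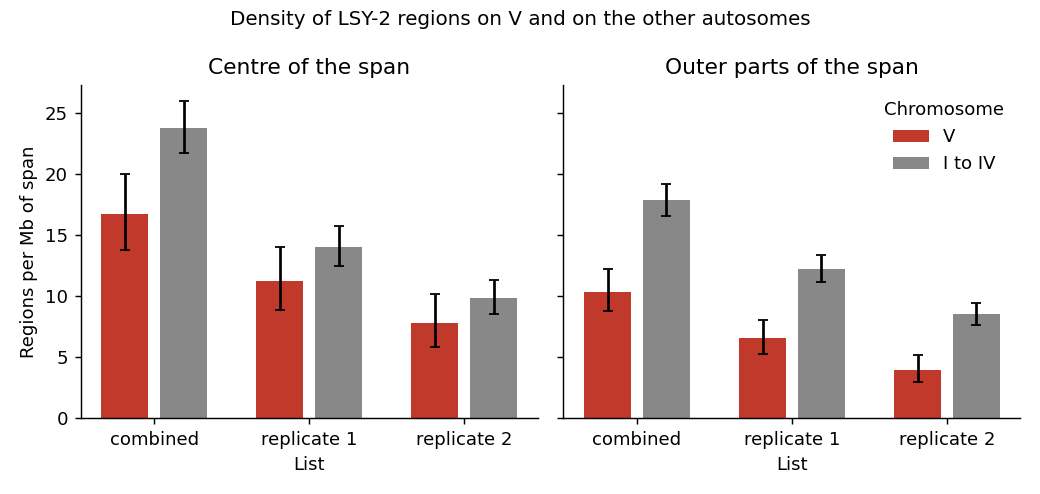
Regions per Mb of span (y axis) in the centre and in the outer parts of chromosome V (red) and of chromosomes I to IV together (grey), for each list (x axis), with 95% exact Poisson intervals that cover counting error only. In the outer parts V lies at 10.4, 6.55 and 3.96 per Mb, against 17.8, 12.2 and 8.51 on the other autosomes.

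Within V, central regions did not differ from outer ones by the tests made. In the centre 51 of 116 were called in both replicates (43.97%) and outside it 51 of 144 (35.4%), a difference of 8.55 points (-3.33 to 20.2, Fisher's exact test, adjusted p = 0.453). Among the stronger 50% of V regions were 56.0% of the central regions and 45.1% of the outer ones, a difference of 10.9 points (-1.31 to 22.6, Fisher's exact test, adjusted p = 0.453). The sign of the second difference turned in both replicate lists, to -10.07 points in replicate 1 and -22.9 points in replicate 2, and neither passed (Fisher's exact tests, adjusted p = 0.454 and 0.195).

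Neighbouring V regions had a median gap of 42.5 kb, with a middle range from 11.7 to 102 kb, against a median of 29.98 kb over the other chromosomes pooled. On X the median was 45.7 kb, longer than on V, and on I to IV it lay between 19.7 and 34.7 kb. A neighbour at most 10 kb away was found for 97 of 260 (37.3%, 95% exact interval 31.4 to 43.5%) and for 36.8% of regions on X, and the shares on I to IV lay between 42.5% and 53.8%. Gap length is not independent of the density given above. The longest gaps of V ran from 2695058 to 3391008 (696 kb), from 17363650 to 17857807 (494 kb) and from 15874232 to 16355772 (482 kb). No replicate region lay inside any of these gaps. Nearly all replicate regions of V overlap a combined region, so that was nearly fixed in advance and nothing is read from it. On the left the longest gap is bordered by the second strongest region of V, and the other two gaps have borders of 3.70 to 9.97 in −log10 q.

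The 3 stretches of at most 100 kb with the most V regions had medians of 4.73 to 5.13 in −log10 q, against 7.50 for all V regions. Each stretch was chosen by its count and holds few regions, and none of another chromosome stands beside it, so nothing is read from these medians. The counts of calls are small and stand beside 40.7% called in both and 34.9% in neither over all combined regions, so nothing is read from the counts either. At the right end, 20744522 to 20841331 held 8 regions, of which 2 were called in both replicates and 5 in neither. Its highest value was 39.95, at the last region of the span. In the middle, 9970105 to 10055107 held 7, of which 1 was called in both and 4 in neither, and its strongest was the region at 10042253, with 30.02. Nearby, 11012074 to 11082982 held 6, with 1 in both, 4 in neither and a highest value of 8.47.

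Of the 259 gaps on V, 13 were under 1000 bp (5.02%, against 5.15% elsewhere), the smallest being 200 bp. At 19642965 to 19643399 and 19643806 to 19644436, with −log10 q of 22.6 and 45.2, both neighbours were called in both replicates, and so were those at 9545175 to 9545703 and 9546386 to 9547397, with 10.5 and 51.0. In 7 of the other 11 cases a region of both replicates stood beside a weaker one called in neither replicate or in replicate 1 only. At 14685323, for example, 62.2 was followed by 6.11 after 217 bp. Over all combined regions 40.7% were called in both replicates, 22.0% in replicate 1 only and 34.9% in neither. Regions of both are the stronger in general and no count of other chromosomes stands beside this one, so nothing is read from it. A run of 4 regions between 19519524 and 19523148 had values of 4.20, 6.04, 4.02 and 16.2, of which the last alone was called in both replicates. No replicate region bridged any of the 13 gaps.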

How the data were processed

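The authors' deposited lists of called regions, 3 in number, were used: 1 per ChIP replicate and a combined list. PeakSeq was the caller and WormBase WS180 the build, per the file headers and columns. Each region has a q-value, assigned by the authors' caller. Aligner, settings, read totals, use of the inputs and the way of combining are not stated in the sources at hand, so depth is unknown. Samples were grouped by title, since the free-text descriptions contradict the titles. The labels do not say whether replicates came from separate cultures, so their spread may be technical.

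Here −log10 q, overlaps of at least 1 bp, widths, gaps and shares were computed with Python 3.11.15, numpy 2.4.6, pandas 2.3.3 and scipy 1.17.1, and plots with matplotlib 3.10.9. The centre is the middle 33.3% of the span between the outermost called bases, and bins divide the span evenly. Shares were compared by two-sided Fisher's exact tests, adjusted by Benjamini-Hochberg over 9 comparisons (threshold 0.05), with Newcombe intervals of the differences and exact Clopper-Pearson intervals of shares. Densities were compared by exact binomial tests, chosen after the data were seen. Intervals cover counting error only. The code was tested on simulated data. Named were the 25 strongest and 5 widest V regions, the 5 strongest per class of support, V regions without a combined partner, and the 3 densest stretches and longest gaps; other positions were chosen after their values were seen. The members and comparisons were chosen with earlier results of these data known. Sequence and gene positions of build WS180 were not used here.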

Additional observations from a re-analysis of the deposited data

Results flagged for a closer look

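Of the 169 replicate 1 regions on V, 2 had no partner in the combined list. The region at 10961362 to 10962032 had a −log10 q of 4.36 in replicate 1 and the one at 18086823 to 18087303 had 3.73. Neither overlapped a replicate 2 region. The lowest replicate 1 value on V was 3.71. All 109 replicate 2 regions on V had a combined partner. The same shares over all chromosomes were not computed, so nothing is read from these counts.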

How the results depend on the processing

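In 53 of 65 alternative values neither the direction nor the side of the threshold changed. The alternatives for the densities were chosen after the data were seen. The difference between V and the other chromosomes changed sign for replicate 2 regions found in replicate 1 in the stronger 50% of each list (-2.31 points), for regions of both replicates in lists of equal length (3.88 points), and for regions of neither in the stronger 50% of each list (5.15 points), without chromosome I (2.66 points) and against other autosomes (0.0955 points). None of these passed. With a single replicate list in place of the combined one, the share of stronger regions in the centre of V turned to between -22.9 and -10.07 points, the width difference was -16.8 to -10.4 points and passed with replicate 2, the difference in strength was -10.2 to -8.79 points, and that in central share 9.71 to 12.9 points. The central density ratio was 0.790 to 0.801 with a single list, 0.764 in the stronger 50% of the combined list and 0.807 when both replicates were required, and it lost its call each time (exact binomial tests, adjusted p = 0.0685 to 0.204). The outer ratio kept its call in all 8 alternatives, from 0.450 to 0.623. The lists with lost calls hold fewer regions, and the cause was not tested. Depth limits the lists to an unknown degree, so absence from a list is no evidence of absent binding.
No paired analysis was possible because the files analysed hold ChIP regions alone, with nothing to set them against by replicate number.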
